A study of Vitis vinifera with 6 samples.

Results

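Chalcone synthase (CHS) and chalcone isomerase (CHI) make the first steps of flavonoid synthesis, and the grapevine genome holds several copies of each. The 5 copies described here were chosen by name and identifier from the 29536 genes with usable values, with earlier results of these data known. They are CHS1 (VIT_14s0068g00930), CHS2 (VIT_14s0068g00920), CHS3 (VIT_05s0136g00260), CHI1 (VIT_13s0067g03820) and CHI2 (VIT_13s0067g02870). The identifiers follow the 12X V1 gene set and put CHS1 and CHS2 on chromosome 14, CHS3 on chromosome 5 and both CHI copies on chromosome 13.

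The RNA came from the seed content of berries of F1 hybrids from the cross of Red Globe with Crimson Seedless, both table grapes, field-grown together on 1103 Paulsen rootstock. Seedless hybrids, labelled sdi+ (3 libraries), gave stenospermocarpic seed traces, which are the remains of seeds that began to form and stopped. Seeded hybrids, labelled sdi- (3 libraries), gave seeds. Sampling was at 4 weeks after anthesis, when berries measured 10 to 12 mm, and the seed content of 12 to 50 fruits from at least 2 clusters was pooled per library. The libraries of seedless replicates 1 to 3 are called traces 1 to 3, and those of seeded replicates 1 to 3 are called seeds 1 to 3. Each library is a different hybrid, so the spread within a class includes differences between hybrids, and a class is represented by 3 genotypes of a single cross.

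CHS condenses p-coumaroyl-CoA with malonyl-CoA units into naringenin chalcone, and CHI closes the chalcone ring to give the flavanone naringenin. Flavanones are the common precursor of flavonols, anthocyanins and proanthocyanidins, the tannins that accumulate in the coat of the young grape seed. Each enzyme is encoded by separate genes that make the same kind of product, so a change in the pathway can be carried by all copies or by some.

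Values are in RPKM, the number of reads scaled to the length of the gene model and to the size of the library. Levels compared between copies also depend on how reads that align to several copies were counted. That treatment is not given in the sources used here. Between 6306797 and 9382395 gene reads per library could be recovered from the steps of the RPKM values, and the 5 copies held 803 to 27795 reads each in any library. Counting error alone was therefore at most 3.53% of a value. Trace 1 stood apart from the other traces. Its log2 values correlated with theirs across genes at 0.847 and 0.862, whereas traces 2 and 3 correlated with each other at 0.944 and the seeded libraries among themselves at 0.959 to 0.961. Values without trace 1 are given beside the calls for CHS1, CHS2 and CHI2, the shares and ratios, and the seed markers. For other genes they are given only where stated.

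All 5 copies were lower in every seed trace library than in any seed library. The difference passed the test for CHS1, CHS2 and CHI2 and did not pass for CHS3 and CHI1. Trace levels were 31.0% of seed levels for CHS1, 41.2% for CHS2, 52.4% for CHS3, 44.0% for CHI2 and 67.1% for CHI1. The test was limma on log2(RPKM + 1), run on the 18749 genes that reached 1 RPKM in 3 libraries or more, with adjustment over all of them and a threshold of 0.05. Of these, 12.3% passed, with 5.1% lower and 7.18% higher in traces. Classes that did not overlap were common, at 39.5% of the tested genes in either direction and 20.5% with traces lower. In bulk tissue, fewer cells of a type and less RNA per cell cannot be told apart.

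**Figure D1:**
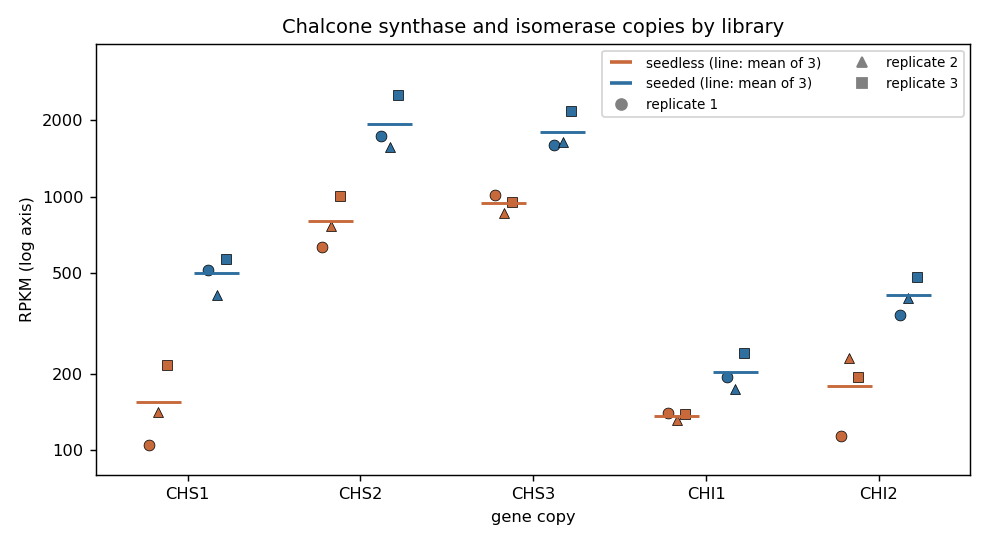
RPKM on a log axis for each of the 5 gene copies, with seedless libraries in orange, seeded libraries in blue, symbols for replicates 1 to 3 and a line at the mean of 3 libraries. In each copy the 3 trace values lie below the 3 seed values (as in 20.5% of tested genes), with the widest gap between class means on this log axis at CHS1 (154.5 against 497.9) and the narrowest at CHI1 (136.7 against 203.7).

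CHS1 was the least abundant of the chalcone synthases and had the largest fold difference between class means of the 5 copies; in RPKM the difference was larger for CHS2 and CHS3. Traces 1 to 3 had 104.8, 141.9 and 216.9 RPKM of CHS1, and seeds 1 to 3 had 513.2, 411.0 and 569.4 RPKM. The highest trace value was thus far below the lowest seed value. The mean was 154.5 ± 57.1 RPKM in traces and 497.9 ± 80.3 RPKM in seeds (SD, n = 3 each). The log2 fold change was -1.73, with a 95% interval of -2.43 to -1.04 (limma adjusted p = 0.0177). With trace 1, the lowest library, left out, the value of -1.49 still passed (limma adjusted p = 0.0153). Without any single one of the seeded libraries it did not pass (limma adjusted p of 0.0597 to 0.0756), at log2 fold changes of -1.86 to -1.63.

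CHS2 lies next to CHS1 in identifier order, and the RefSeq gene table lists no other gene between them. It was several times more abundant. Traces 1 to 3 had 633.0, 763.7 and 1003 RPKM of CHS2, and seeds 1 to 3 had 1729, 1566 and 2524 RPKM. The traces and the seeds were similarly spread in relative terms, with a coefficient of variation of 23.4% against 26.4%, and the classes did not overlap. The log2 fold change was -1.27 with a 95% interval of -1.99 to -0.55 (limma adjusted p = 0.042). This call was close to the threshold: it was lost without trace 1 (log2 fold change -1.12, limma adjusted p = 0.0598), without each other library in turn, under quantile normalization and with no filter on low values.

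CHS3, on another chromosome, overlapped with CHS2 in level and varied least of the chalcone synthases among the traces. Traces 1 to 3 had 1019, 860.5 and 954.0 RPKM of CHS3, and seeds 1 to 3 had 1599, 1638 and 2173 RPKM. Its coefficient of variation in traces was 8.42%, and trace 1, the lowest trace for CHS1 and CHS2, was the highest trace for CHS3. The log2 fold change of -0.92 had a 95% interval of -1.5 to -0.35, and its limma adjusted p of 0.0543 missed the threshold. It passed in 4 of 15 alternative settings, at adjusted p of 0.0255 to 0.0466, and over all settings its limma adjusted p was 0.0255 to 0.176.

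CHI2 was the copy of chalcone isomerase that passed. Traces 1 to 3 had 113.3, 231.8 and 193.7 RPKM of CHI2, and seeds 1 to 3 had 342.5, 400.0 and 482.7 RPKM. Trace 1 was well below the other traces, and the classes did not overlap. The means were 179.6 ± 60.5 and 408.4 ± 70.5 RPKM (SD, n = 3 each), with a log2 fold change of -1.23 and a 95% interval of -1.94 to -0.52 (limma adjusted p = 0.0443). With trace 1 left out, the value was -0.93 and it again passed (limma adjusted p = 0.0316). The call was lost without trace 3, without any single one of the seeded libraries, under quantile normalization and with no filter.

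CHI1 had the smallest difference between class means of the 5 copies, in RPKM and as a fold. Traces 1 to 3 had 140.2, 131.1 and 138.9 RPKM of CHI1, and seeds 1 to 3 had 194.9, 173.9 and 242.4 RPKM. The 3 traces were nearly level, with a coefficient of variation of 3.58%, close to the largest counting error of 3.53% among the copies. The log2 fold change of -0.56 had a 95% interval of -0.95 to -0.16, and its limma adjusted p of 0.0725 missed the threshold. The intervals given here are not adjusted for the number of genes tested, so one can exclude 0 where the adjusted p misses the threshold. For CHI1 the unadjusted limma p was 0.0127. The CHI1 interval leaves room for a log2 difference as small as -0.16 or as large as -0.95.

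**Figure D2:**
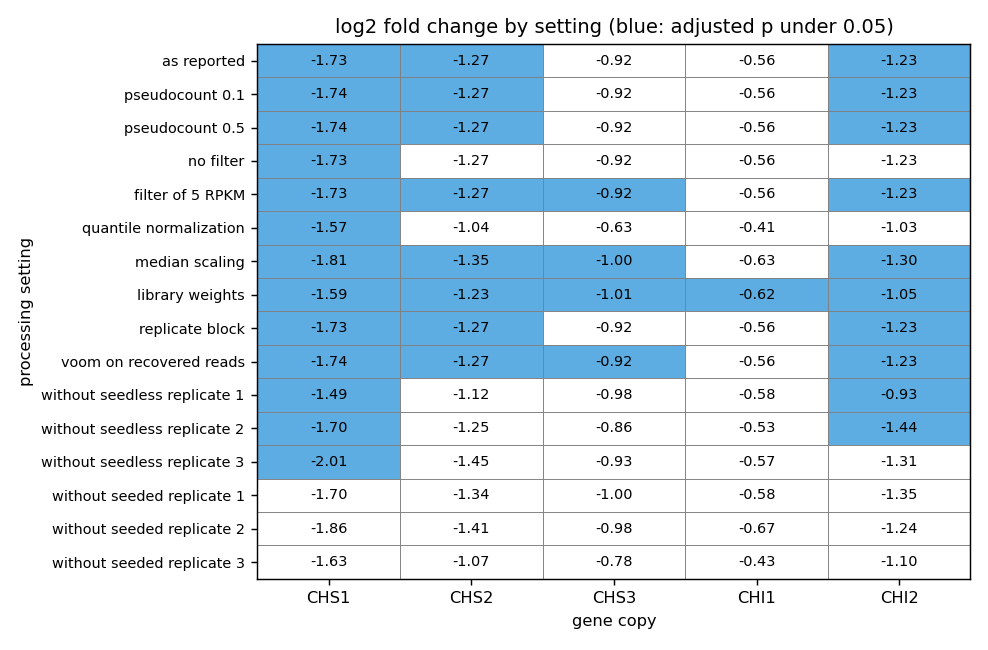
The log2 fold change (seedless minus seeded) of each copy, printed for the reported fit and 15 other processing settings, with cells in blue where the limma adjusted p was under 0.05. All values are negative, CHS1 passed in 12 of the 15 other settings, CHI2 in 9, CHS2 in 7, CHS3 in 4 and CHI1 in 1.

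CHS2 and CHS3 were the most abundant of the 5 copies in each of the 6 libraries. CHS2 and CHS3 each exceeded CHS1 in 6 of 6 libraries. Between CHS2 and CHS3 the order was mixed, with CHS2 higher in 3 of 6 libraries (trace 3 and seed libraries 1 and 3), and their levels overlapped within each class. In seeds, CHS1 exceeded CHI2 in 3 of 3 libraries and CHI2 exceeded CHI1 in 3 of 3, although the ranges of CHS1 and CHI2 overlapped. In traces, CHS1, CHI1 and CHI2 were not ordered beyond their spread: CHS1 exceeded CHI2 only in trace 3, and CHI2 exceeded CHI1 in 2 of 3 libraries, with trace 1 the other way.

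Among all 29536 genes ranked by RPKM, CHS2 and CHS3 were among the most abundant transcripts of the seed. CHS2 ranked 10, 16 and 5 in seeds 1 to 3 and 71, 32 and 22 in traces 1 to 3. CHS3 ranked 14, 14 and 10 in seeds and 29, 27 and 27 in traces. CHS1 differed most in median rank, with 86, 165 and 86 in seeds and 1154, 648 and 337 in traces. CHI1 ranked 455, 618 and 359 in seeds and 739, 735 and 695 in traces, and CHI2 172, 174 and 112 against 1022, 264 and 403.

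Summed over copies, CHS stood at 1756, 1766 and 2173 RPKM in traces 1 to 3 and at 3842, 3615 and 5267 RPKM in seeds 1 to 3. The means were 1899 ± 238.0 and 4241 ± 895.7 RPKM (SD, n = 3 each), a 2.23-fold higher sum in seeds. In reads, the CHS copies took 0.242% to 0.324% of all recovered gene reads in traces and 0.509% to 0.722% in seeds. Summed CHI was 253.5, 362.9 and 332.6 RPKM in traces and 537.4, 574.0 and 725.1 RPKM in seeds, a 1.94-fold higher mean in seeds. Neither sum overlapped between classes. An exact permutation test of 3 against 3 libraries (two-sided) cannot go below p = 0.1, which both sums reached, and adjusted over the 7 sums, shares and ratios tested here the exact p was 0.233.

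The share of each copy was compared within libraries, where it does not depend on the library total. CHS1 made up 5.97%, 8.03% and 9.98% of summed CHS RPKM in traces 1 to 3 and 13.4%, 11.4% and 10.8% in seeds 1 to 3. Every trace had a smaller CHS1 share than every seed, although trace 3 and seed library 3 differed by less than 1 percentage point. The mean share was 7.99% ± 2.01 in traces and 11.9% ± 1.34 in seeds (SD, n = 3 each). The exact permutation p was 0.1, the smallest that this test can give for 3 against 3 libraries, and 0.233 adjusted over 7 (two-sided). Without trace 1 the difference was -2.84 percentage points in place of -3.85.

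CHS3 held the largest share of the CHS copies in traces 1 and 2 and in seed library 2. Its share of summed CHS RPKM was 58.0%, 48.7% and 43.9% in traces 1 to 3 and 41.6%, 45.3% and 41.3% in seeds 1 to 3. The classes overlapped, since trace 3 was below seed library 2 (exact permutation p = 0.2, two-sided, 0.28 adjusted over 7). The CHS3 share was 7.47 percentage points higher in traces with all libraries and 3.57 without trace 1. The CHS2 share was 36.0%, 43.2% and 46.1% in traces and 45.0%, 43.3% and 47.9% in seeds, a difference of -3.61 percentage points that was -0.731 without trace 1 and -2.36 without seed library 3, and -5.78 without trace 3 (exact permutation p = 0.4, two-sided).

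**Figure D3:**
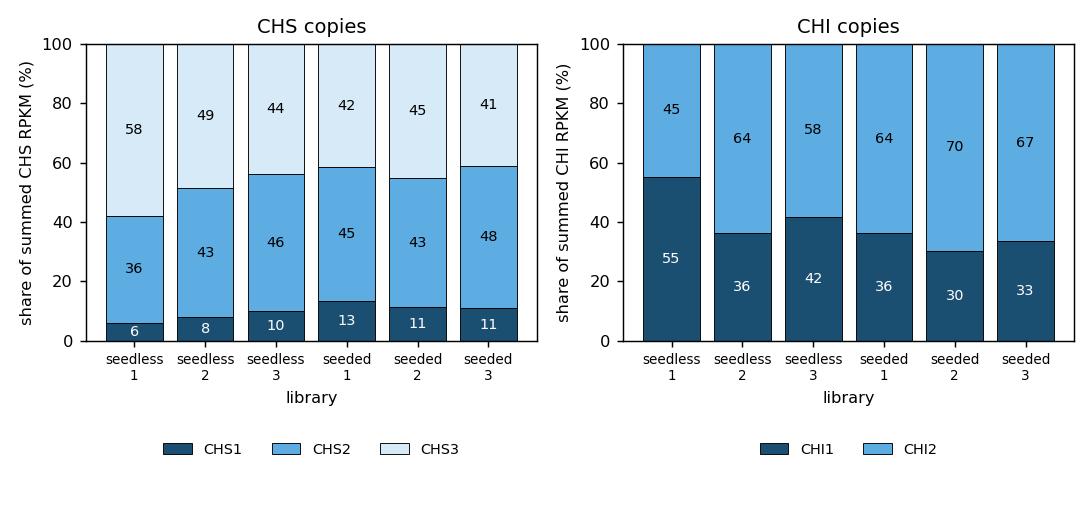
Stacked bars of the share of each copy in summed CHS RPKM (left) and summed CHI RPKM (right), in percent, for each of the 6 libraries (traces are labelled seedless and seeds seeded). The CHS1 segment is smallest in trace 1 (5.97%) and largest in seed library 1 (13.4%), and trace 1 is the library in which CHI1 exceeds CHI2.

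For chalcone isomerase, CHI2 made up 44.7%, 63.9% and 58.2% of the sum in traces 1 to 3 and 63.7%, 69.7% and 66.6% in seeds 1 to 3. Trace 2 lay within 1 percentage point of seed library 1 and above it, so the classes overlapped (exact permutation p = 0.2, two-sided, 0.28 adjusted over 7). The difference of -11.1 percentage points became -5.61 without trace 1. The ratio of summed CHS to summed CHI RPKM was 6.93, 4.87 and 6.53 in traces and 7.15, 6.30 and 7.26 in seeds, and the classes overlapped (exact permutation p = 0.4, two-sided). The difference of -0.794 in this ratio was -1.20 without trace 1 and -0.172 without trace 2, so its size rested on single libraries.

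Set against each other on the log2 scale, the ratio of CHS1 to CHS2 was -2.60, -2.43 and -2.21 in traces 1 to 3 and -1.75, -1.93 and -2.15 in seeds 1 to 3. Traces minus seeds, the mean of this ratio differed by -0.47 and that of CHS1 to CHS3 by -0.82, and the classes did not overlap for either ratio. The ratio of CHS2 to CHS3 and that of CHI2 to CHI1 differed by -0.35 and -0.67 and overlapped. Over these 4 pairs, compared after the values were seen, the exact permutation p was 0.1, 0.1, 0.2 and 0.2 (two-sided), and 0.2 for each after adjustment. Without trace 1 the 4 differences were -0.38, -0.51, -0.14 and -0.35. How reads that align to more than one copy were counted is not given in the sources used here, so the split between chalcone synthase copies is uncertain by an amount that was not tested.

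The libraries also varied within a class. Seed library 3 had the highest value of the 6 libraries for 5 of 5 copies, as it did for 7 of 15 other flavonoid genes above the filter and for 14.5% of all tested genes. Trace 1 was the lowest trace for CHS1, CHS2 and CHI2, 3 of 5 copies, and for 41.5% of all tested genes. For CHS3 and CHI1 the lowest trace was trace 2. Relative to the trace mean on the log2 scale, trace 1 deviated by -0.49 for CHS1, -0.31 for CHS2 and -0.6 for CHI2, and by 0.11 for CHS3 and 0.04 for CHI1.

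The 3 seed markers examined, chosen with earlier results of these data known, were also lower in traces. VviAGL11, a MADS-box gene of ovule and seed coat identity, the proanthocyanidin regulator MYBPA1 and anthocyanidin reductase (ANR) were each lower in every trace than in every seed, as were 20.5% of tested genes. Of these 3, 2 passed the test (5.1% of tested genes were called lower), and VviAGL11, at a log2 fold change of -1.24, did not (limma adjusted p = 0.161). Without trace 1 the VviAGL11 value was -0.59 and all 3 passed (limma adjusted p = 0.0373 for VviAGL11, 0.0228 for MYBPA1 and 0.0346 for ANR). Their summed level was 313.1 to 558.3 RPKM in traces and 901.9 to 1102 RPKM in seeds, and the part of this shift in the results on CHS and CHI was not tested. MYBPA1 and ANR are also genes of the flavonoid pathway. In that list 9 genes passed as lower in traces, these 2 among them. LAR2 and MYB5a differed the other way, by 1.70 and 0.67 in log2 units, and neither passed. Of 3 genes of coloured berry skin, MYBA2 was listed at 0 in all 6 libraries and MYBA1 and UFGT reached at most 0.372 RPKM. The stilbene synthases are close relatives of chalcone synthase and use the same substrates. Only their chromosome 16 cluster was examined. There, 0 of 39 identifiers passed the filter, and none exceeded 2.19 RPKM. How reads that align to several of these copies were counted is not given, and its effect on these values was not tested.

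Of the 16 other genes listed for the pathway, 15 were above the filter. Of these, 9 fell in traces, 0 rose and 6 did not pass (limma, against 5.1% called lower and 7.18% higher over all tested genes), namely F3H2, LDOX, FLS1, LAR2, MYB5a and MYB5b. The list was chosen with earlier results of these data known, so its counts are not independent of them. At an unadjusted limma p under 0.05, 11 of the 15 genes were lower in traces and 1 was higher (LAR2). Voom on recovered reads also had 11 lower and 1 higher. The share of all tested genes at this unadjusted cutoff was not counted. At the adjusted threshold voom called 0 higher, as the main fit did. Library weights were the setting under which LAR2 was called higher in traces. LAR2 had 75.9 RPKM in trace 1 and 21.5 and 21.2 RPKM in traces 2 and 3. Without trace 1 its log2 fold change was 1.11 in place of 1.70. Those of FLS1, MYB5a and MYB5b were then 0.99, 0.26 and -0.75, in place of -0.14, 0.67 and -0.08. The median log2 fold change was -1.19 over these 15 genes, -1.23 over the 5 CHS and CHI copies and -0.04 over all genes tested. Without trace 2 or without seed library 1, 2 or 3 the list had 5, 3, 3 and 1 falls, beside 3.17%, 1.15%, 0.667% and 0.619% of all tested genes called lower.

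Upstream of CHS, the phenylalanine ammonia-lyase copy VIT_06s0004g02620 (PAL), which opens the phenylpropanoid route, had 337.5, 331.6 and 393.6 RPKM in traces 1 to 3 and 1008, 858.4 and 895.4 RPKM in seeds 1 to 3. Its log2 fold change of -1.38 passed (limma adjusted p = 0.00949). Cinnamate 4-hydroxylase (C4H, VIT_06s0004g08150), the next enzyme, fell by 1.19 in log2 units (limma adjusted p = 0.0257). Both act on the route to the coumaroyl-CoA that CHS uses, and their fold changes lay between those of CHS1 and CHS3.

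Downstream of CHI, the flavanone 3-hydroxylase copies were also called differently. F3H1 (VIT_04s0023g03370) fell by 1.32 (log2; limma adjusted p = 0.0145), whereas F3H2 (VIT_18s0001g14310) had a log2 fold change of -0.89 and missed the threshold (limma adjusted p = 0.0741). The difference between them was not tested. Flavonoid 3'-hydroxylase (F3'H), which sets the hydroxylation of the B ring, fell by 1.31 on the log2 scale, and dihydroflavonol reductase (DFR) fell by 1.47 (limma adjusted p = 0.00674 and 0.0143). LDOX, the dioxygenase that makes anthocyanidins, had 912.4 to 992.6 RPKM in traces and 1555 to 2248 RPKM in seeds. It differed by -0.92 on the log2 scale, which missed the threshold (limma adjusted p = 0.057). LDOX was thus close to CHS3 both in level and in fold change.

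**Figure D4:**
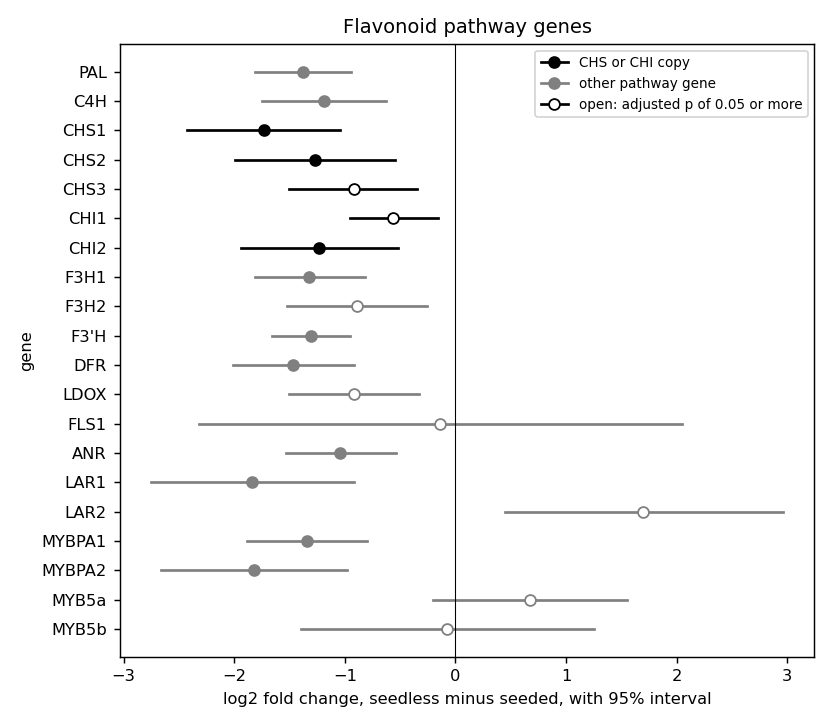
Log2 fold change (seedless minus seeded, on log2(RPKM + 1)) with its 95% interval for the CHS and CHI copies in black and 15 other pathway genes in grey, in pathway order, with regulators last and open symbols where the limma adjusted p was 0.05 or more. The 5 copies lie between -1.73 (CHS1) and -0.56 (CHI1), beside other genes from LAR1 (-1.84) to LAR2 (1.70). The intervals are not adjusted for the number of genes tested.

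The genes beside CHS1 and CHS2 were far less abundant. Of the 4 nearest identifiers on the scaffold, 3 were above the filter, with limma adjusted p of 0.203 to 0.778. VIT_14s0068g00910 had 13.2, 17.3 and 18.8 RPKM in traces 1 to 3 and 16.0, 20.2 and 18.7 RPKM in seeds 1 to 3, so the classes overlapped (log2 fold change -0.16, limma adjusted p = 0.586). VIT_14s0068g00940 had 4.498, 12.0 and 13.4 RPKM in traces 1 to 3 and 16.4, 17.7 and 15.1 RPKM in seeds 1 to 3. Its classes did not overlap, with traces lower, as for CHS1 and CHS2, and its log2 fold change was -0.78 (limma adjusted p = 0.203). Trace 1 was its lowest library, and no value without that library is given. VIT_14s0068g00900 differed by 0.17 in log2 units at up to 5.32 RPKM, with overlapping classes. The fold changes of CHS1 and CHS2 were not tested against those of their neighbours.

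The gene whose profile over the 6 libraries was most like the mean log2 level of the CHS copies was VIT_14s0006g02020, with a Pearson r of 0.9998. It had 105.5, 109.7 and 122.6 RPKM in traces and 160.7, 153.6 and 177.1 RPKM in seeds. VIT_19s0015g00910 followed with an r of 0.9978. The 6 libraries fall into 2 classes, and 792 of the 10885 genes averaging at least 10 RPKM reached an r of at least 0.9, so such a likeness was common. The files do not pair either identifier with a name.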

How the data were processed

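Per the labels' protocols, a stranded mRNA kit with 15 cycles of PCR was used, and fragments averaged 302 bp. A single table was deposited, in which the authors give RPKM for each of the 6 libraries. TopHat2 2.0.13, HTSeq 0.5.4p5 and edgeR 2.2.6 are named in the submitters' processing notes without their roles; the build, strand setting and treatment of multiply aligned reads are not given in the sources used here. Of 29548 rows, 12 with a doubled decimal point were left out. Classes follow the phenotype label, which the tissue and genotype labels match; seeded samples carry the word Seededless in their titles.

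Whole reads were recovered by searching lengths up to 20000 that turn the values of a gene in all 6 libraries into whole numbers within 0.1 read, and 22309 of 24536 genes above 0 were accepted at a chance fit under 0.01. The search was checked on simulated data. The divisors behind the RPKM were 6576771 to 9267652 reads. Recovered gene reads summed to 93.8% to 104.3% of them, above 100% in 3 libraries, so the divisors are not plain sums of gene reads.

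Limma 3.58.1 in R 4.3.3 (lmFit, eBayes with trend, two-sided, Benjamini-Hochberg) was run on log2(RPKM + 1), a scale on which low genes change too little, and was checked on simulated data. Sums, shares and ratios were compared by exact permutation with scipy 1.17.1 in Python 3.11.15. Alternatives changed the pseudocount (0.1 and 0.5), filter (none or 5 RPKM), scaling, library weights, a block on replicate number and the count model (limma's voom on recovered reads), and left out each library in turn over the same tested genes.

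The members and lists were chosen with earlier results of these data known; the naming rule took the 5 copies, the pathway and marker lists, the 4 neighbours of CHS1 and CHS2 and the 2 most similar profiles. No identifier matched the reference gene table (RefSeq, ASM3070453v1). Names of the 5 copies came with their identifiers, and all 5 occur there as symbol or synonym on the chromosome of the identifier, with CHI1 and CHI2 as synonyms of 1 gene. Names of the other pathway genes and markers were recalled from the published grapevine catalogue. Of the 16 pathway symbols 10 occur in that table, 8 on the same chromosome. PAL and ANR are there on a chromosome that their identifiers do not give. C4H, F3H1, F3H2, MYBPA2, MYB5a and MYB5b do not occur there.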

Additional observations from a re-analysis of the deposited data

How the results depend on the processing

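All 5 copies kept a lower level in traces in each of the 15 alternative fits, and no sum, share or ratio changed direction in any alternative run. The classes did not overlap for the 5 copies and both sums. Leaving out a library or changing the pseudocount, filter, weights or block could therefore not have reversed their direction. The calls were less stable. CHS2 did not pass with no filter (log2 fold change -1.27, limma adjusted p = 0.107) or under quantile normalization (-1.04, limma adjusted p = 0.102), and CHI2 did not pass there either (-1.23 and -1.03, limma adjusted p = 0.0614 and 0.0963). CHS3 passed with a filter of 5 RPKM (-0.92), median scaling (-1), library weights (-1.01) and voom on recovered reads (-0.92), and CHI1 with library weights (-0.62). Leaving out 1 library at a time gave log2 fold changes of -2.01 to -1.49 for CHS1, -1.45 to -1.07 for CHS2, -1 to -0.78 for CHS3, -0.67 to -0.43 for CHI1 and -1.44 to -0.93 for CHI2. It gave 429 to 2909 genes past the threshold in place of 2303, and 1 to 9 falls on the pathway list in place of 9. Library weights called 3603 genes. With fewer libraries the test has fewer degrees of freedom; beyond that, the cause of the lost calls was not tested. With a replicate block 1714 genes passed, and the 3 copies called were again CHS1, CHS2 and CHI2 (CHS1 limma adjusted p = 0.0302). Same-numbered libraries come from different hybrids, and their deviations from the class means correlated at 0.07, 0.18 and 0.1. Among libraries of the other class, each of the 6 libraries was closest to the one of its own number. Deviations within a class sum to 0, so these 6 matches are not independent. Whether libraries are paired was not tested. For sums and shares a block on 3 pairs cannot go below an exact p of 0.25. At 3 libraries a class, no single sum or share can reach 0.05 in the exact permutation test used here.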
